A study of Mus musculus with 4 samples.

Results

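The genes described here are the enzymes of serine synthesis, Phgdh, Psat1 and Psph, the folate-linked one-carbon enzymes of the cytosol, Shmt1 and Mthfd1, those of the mitochondrion, Shmt2, Mthfd2, Mthfd1l and Aldh1l2, and the transcription factor Atf4. They were taken by symbol from the annotated count table, and 10 of 10 were found among 39017 genes. Messenger RNA of 4 lung tumours was sequenced, with 1 library per tumour, and all 4 belonged to the Control group, so that no groups could be compared. The questions asked were how far each transcript varied between tumours, which tumours were high or low, and how the levels of enzymes of the same step or branch compared within a tumour.

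The tumours came from male KP mice on the C57BL/6 strain, which form adenocarcinomas of the lung once Cre recombinase has removed both floxed p53 alleles (p53 Fl/Fl) and switched on 1 mutant K-ras allele behind a lox-stop-lox cassette (K-ras LSL/WT). Cre was delivered into the trachea by lenti.PGK-Cre, by the labels at 1500 viral units for each mouse. The study's methods give higher doses for this vector. The PGK promoter is active in most cell types, so recombination was not limited by the promoter to 1 type of lung cell. Tumours were macrodissected 22 weeks and 5 days after delivery and dissociated, and libraries were made with a stranded polyA kit from 500 ng of RNA. The genotype label reads heterozygous fl/wt with no gene named, the headers of the deposited log2 table mark the same tumours WT, and the study's methods allow controls to carry either no floxed Slc2a1 allele or 1. The labels number the tumours 1 to 4 and do not say whether any of them shared a mouse. P-values therefore speak only for these 4 samples. With 1 library per tumour, differences from dissection, dissociation or library preparation cannot be told apart from differences between tumours.

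Serine is made from the glycolytic intermediate 3-phosphoglycerate by dehydrogenation (Phgdh), transamination (Psat1) and dephosphorylation (Psph). Serine hydroxymethyltransferases then split serine to glycine and pass its side-chain carbon to tetrahydrofolate, Shmt2 in the mitochondrion and Shmt1 in the cytosol, and the Mthfd enzymes carry that carbon through methenyl- and formyl-folate to the formate used for purines and thymidylate. Atf4 is a basic leucine zipper factor whose translation increases when eIF2 alpha is phosphorylated, for example in amino acid shortage, and which is known to activate genes of this pathway. Because much of that control acts on translation, the Atf4 transcript does not measure the Atf4 protein.

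Total counts were between 8151613 and 8799007 for each tumour, and 14225 genes with a mean of at least 1 CPM (count per 1e+06 of the effective library size) were tested, all 10 genes among them. The alveolar type 2 marker Sftpc was between 17722 and 29617 CPM and the lung factor Nkx2-1 between 290 and 396 CPM, so the labelled tissue was found in every library. The 6 pan-leukocyte markers were all highest in tumour 3, with a summed level of 360 CPM against 147 to 205 CPM in the other 3 tumours and none at 0. The epithelial marker Epcam was lowest in tumour 3, at 218 CPM against 371 to 600 CPM, whereas the other 3 markers of the epithelial list were not lowest there. Cdh1 lay between 842 and 887 CPM, and the keratins Krt8 and Krt18 were lowest in tumour 2, at 589 and 640 CPM, against 676 and 748 CPM in tumour 3. Tumour 1 had the highest epithelial sum, at 3972 CPM against 2488 to 2632 CPM, although Cdh1 was lowest there. Tumour 1 also had the lowest sum of club cell markers, at 87.3 CPM against 573 to 959 CPM, with none of either list at 0. Among the club cell markers, Aldh1a1 was instead lowest in tumour 2, at 43.7 CPM against 50.8 CPM in tumour 1. In these bulk libraries, fewer cells of a type and less RNA per cell cannot be told apart.

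Upstream sequences are shown for Phgdh, the gene with the widest spread between tumours, and for Mthfd2 and Shmt2, which had the same order over the 4 tumours. They are the 250 bases before the RefSeq start on GRCm38.p6, printed on the strand of the gene, with CCAAT boxes of either orientation (CCAAT or ATTGG) in capitals. The Phgdh stretch is chr3:98339970-98340219 on the minus strand, the Mthfd2 stretch chr6:83317605-83317854 on the minus strand, and the Shmt2 stretch chr10:127522445-127522694 on the minus strand.
Phgdh: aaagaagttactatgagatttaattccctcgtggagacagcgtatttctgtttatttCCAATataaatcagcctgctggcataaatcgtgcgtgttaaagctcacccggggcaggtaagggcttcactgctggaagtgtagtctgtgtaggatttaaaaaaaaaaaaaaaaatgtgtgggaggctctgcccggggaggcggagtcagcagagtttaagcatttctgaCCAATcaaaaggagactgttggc
Mthfd2: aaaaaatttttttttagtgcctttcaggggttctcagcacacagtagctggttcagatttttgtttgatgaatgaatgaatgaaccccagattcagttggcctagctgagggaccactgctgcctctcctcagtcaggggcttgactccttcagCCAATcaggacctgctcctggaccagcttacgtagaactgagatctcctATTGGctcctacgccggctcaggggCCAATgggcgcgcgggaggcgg
Shmt2: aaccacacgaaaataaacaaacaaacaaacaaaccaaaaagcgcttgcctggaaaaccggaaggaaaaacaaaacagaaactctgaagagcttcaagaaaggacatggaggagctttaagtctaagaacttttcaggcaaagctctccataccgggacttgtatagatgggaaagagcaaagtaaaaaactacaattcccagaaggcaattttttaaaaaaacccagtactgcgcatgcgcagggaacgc
The Phgdh stretch holds 2 CCAAT boxes, at 193 to 189 and at 23 to 19 bases before the start, and the Mthfd2 stretch holds 3, at 96 to 92, 47 to 43 and 22 to 18 bases before it. The Shmt2 stretch holds none.

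RefSeq windows reaching from 250 bases before to 50 bases after the start were found for 9 of the 10 genes, all but Aldh1l2. Genes can have several windows, so shares are given over genes. A CCAAT box was in a window of 7 of the 9 genes, beside 41.1% of 27025 genes with a window. The amino acid response element TGATGNAA, the site that Atf4 binds together with C/EBP factors, was searched on both strands and was in the window of 0 of the 9 genes, beside 4.51% of all such genes. Of 17 other Atf4 target genes with a window, 8 held it. Stretches around it are shown for 3 of these 8 as a reference for what the search looks for, with the element in capitals, for Asns (chr6:7693215-7693242, minus strand), Chac1 (chr2:119351039-119351066, minus strand) and Slc7a11 (chr3:50443662-50443689, minus strand).
Asns: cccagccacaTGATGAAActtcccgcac
Chac1: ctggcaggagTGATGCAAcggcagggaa
Slc7a11: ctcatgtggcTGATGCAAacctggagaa
Response elements of several Atf4 targets lie in introns or farther upstream, so a window without these letters says only that they are not within it. The antioxidant element TGACNNNGC was in the windows of Phgdh and Psph, 2 of 9 genes, beside 13.99% of all such genes, and the E-box CACGTG was in none of the 9, beside 8.09%.

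Phgdh, which catalyses the first and committed step of serine synthesis, differed 11.1-fold between tumours. Its gene (ENSMUSG00000053398) lies at chr3:98313170-98339990 on the minus strand of GRCm38. In tumours 1 to 4 the level was 68.2, 27.6, 6.17 and 40.2 CPM, from counts of 620, 238, 50 and 338 (mean 35.6 ± 25.9 CPM, SD, n = 4). Tumour 3 stood below all others, and its 95% Poisson interval of 4.58 to 8.13 CPM, which covers counting error only, did not reach the next lowest value. Without tumour 3 the highest and lowest tumours differed 2.47-fold, and without tumour 1 they differed 6.52-fold.

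Psat1, the aminotransferase of the second step, kept a high level throughout, with 209, 216, 199 and 144 CPM in tumours 1 to 4 (mean 192 ± 33.0, SD, n = 4). Tumour 4 was the low one for Psat1, and tumour 3, where Phgdh was lowest, held 199 CPM. Psph, the phosphatase of the last step, had few counts, between 66 and 108, and reached 11.9, 7.67, 8.27 and 8.33 CPM (mean 9.04 ± 1.92, SD, n = 4). Tumour 1 was highest for Psph, and the other 3 lay within 1.09-fold of each other. Psat1 (ENSMUSG00000024640) is at chr19:15904678-15947337 and Psph (ENSMUSG00000029446) at chr5:129765558-129787449, both on the minus strand. Psph shares 452 exonic bases with Cct6a on the opposite strand, and the strand setting of the counting was not stated.

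**Figure D1:**
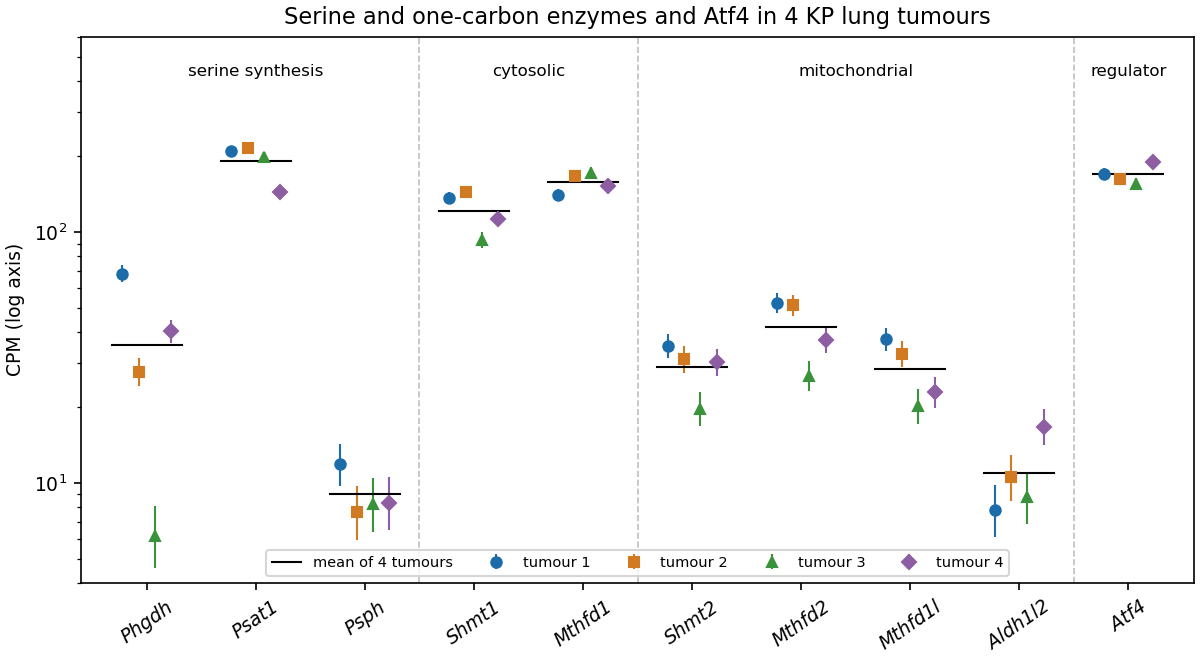
CPM of the 10 genes in each tumour, on a log axis, with 1 point for each tumour, thin vertical bars for 95% Poisson intervals (counting error only) and a horizontal bar at the mean of 4. Phgdh spans 6.17 to 68.2 CPM with tumour 3 lowest, while Atf4 and Mthfd1 stay within 156 to 190 and 141 to 172 CPM.

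In the cytosol, both enzymes were abundant. Shmt1, the cytosolic serine hydroxymethyltransferase (chr11:60788104-60811718, minus strand), was at 137, 144, 93.2 and 113 CPM in tumours 1 to 4 (mean 122 ± 23.3, SD, n = 4). Mthfd1, which carries the dehydrogenase, cyclohydrolase and synthetase activities of the cytosol in 1 protein (chr12:76255298-76319803, plus strand), was at 141, 168, 172 and 153 CPM (mean 158 ± 14.3, SD, n = 4). Shmt1 was lowest in tumour 3 and Mthfd1 highest there, so the cytosolic enzymes had different orders. Shmt1 shares 184 exonic bases with Smcr8 on the opposite strand.

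By their values, the mitochondrial enzymes Shmt2, Mthfd2 and Mthfd1l had 1 common order, with tumour 1 highest, then 2, then 4, and tumour 3 lowest. Shmt2, which starts the mitochondrial branch (chr10:127517123-127522444, minus strand), was at 35.1, 31.1, 19.7 and 30.3 CPM (mean 29.1 ± 6.56, SD, n = 4). Mthfd2, the dehydrogenase and cyclohydrolase of the mitochondrion (chr6:83305691-83325908, minus strand), was at 52.2, 51.1, 26.8 and 37.0 CPM (mean 41.8 ± 12.1, SD, n = 4). Mthfd1l, the synthetase that releases formate (chr10:3973118-4167081, plus strand), was at 37.4, 32.8, 20.2 and 23.0 CPM (mean 28.3 ± 8.09, SD, n = 4). Parts of this order were within counting error. For Shmt2 the 95% Poisson intervals of tumours 1, 2 and 4 overlapped (31.4 to 39.2, 27.5 to 35.1 and 26.7 to 34.3 CPM). For Mthfd2 so did those of tumours 1 and 2 (47.6 to 57.1 and 46.4 to 56.1 CPM). For Mthfd1l the intervals of tumours 1 and 2 overlapped (33.5 to 41.6 and 29.0 to 36.8 CPM). Those of tumours 3 and 4 did so too (17.3 to 23.6 and 19.8 to 26.4 CPM). The fold between highest and lowest was 1.78 for Shmt2, 1.95 for Mthfd2 and 1.85 for Mthfd1l.

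Aldh1l2, which oxidises formyl-folate to carbon dioxide in the mitochondrion (chr10:83487450-83534140, minus strand), went another way, with 7.81, 10.6, 8.76 and 16.8 CPM in tumours 1 to 4 (mean 10.98 ± 4.03, SD, n = 4). It was highest in tumour 4 and lowest in tumour 1. Its counts, 71 to 141, were low, and 1056 of its exonic bases overlap D10Wsu102e on the opposite strand.

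Atf4 (chr15:80255184-80257541, plus strand) had a small spread, close to that of Mthfd1, at 171, 162, 156 and 190 CPM (mean 170 ± 14.9, SD, n = 4). Tumour 4 was highest and tumour 3 lowest, a 1.22-fold range. The SD of log2 CPM was 0.12 for Atf4 and 0.13 for Mthfd1, between 0.27 and 0.48 for the other 7 enzymes, and 1.48 for Phgdh.

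The spread between tumours was tested in 2 ways. Against counting noise (chi-square test of the 4 counts with Poisson expectations, Benjamini-Hochberg over all genes tested), 10 of 10 genes varied, but so did 76.7% of all genes tested, so this count sets the genes apart from sampling error and not from other genes. The adjusted p was 1.03e-101 for Phgdh and between 4.36e-30 and 0.0176 for the others. In 5 genes that call rested on 1 tumour. The adjusted p of this chi-square test rose to 0.0741 for Psat1, 0.175 for Aldh1l2 and 0.0933 for Atf4 without tumour 4, to 0.887 for Psph without tumour 1 and to 0.218 for Shmt2 without tumour 3.

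Against genes of like abundance (edgeR quasi-likelihood fit with an intercept only), 1 of 10 genes, Phgdh, had an unadjusted p under 0.05, beside 5.27% of all genes tested. The unadjusted p of Phgdh in the edgeR fit was 0.00732 and lay between 0.00187 and 0.0373 over the alternatives, the latter without tumour 3. After Benjamini-Hochberg adjustment in edgeR it was 0.732, and 0 of 14225 genes passed, with 749 at an unadjusted p under 0.05. The reference spread of this fit came from the same genes. The club cell marker Scgb1a1, which differed 75.1-fold between tumours, had an adjusted p of 0.659 in the edgeR fit. A gene that does not pass is therefore not shown to have an ordinary spread. By SD of log2 CPM, Phgdh ranked 357 of 14225. The other 9 genes had unadjusted p-values from 0.155 for Mthfd2 to 0.812 for Atf4 in the edgeR fit. Their spread was not shown to differ from that of genes at the same level. The median SD of the 10 genes was 0.32 on the log2 scale beside 0.29 for all genes tested.

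**Figure D2:**
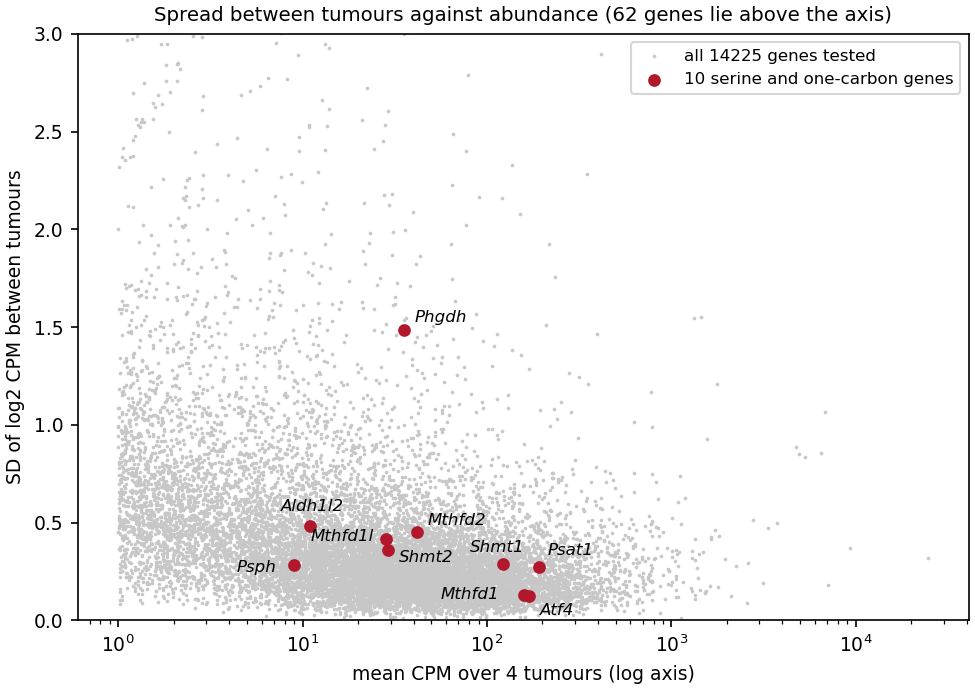
SD of log2 CPM between the 4 tumours against mean CPM (log axis), with 1 grey point for each of 14225 genes tested and the 10 genes in red. Phgdh, at an SD of 1.48, lies apart from the other 9, which are between 0.12 and 0.48.

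The lowest value lay in tumour 3 for 6 of 10 genes, beside 32.5% of all genes tested. The 6 were Phgdh, Shmt1, Shmt2, Mthfd2, Mthfd1l and Atf4. For Mthfd1l and Atf4 the 95% Poisson intervals of tumour 3 and of the next lowest tumour overlapped. The highest value lay in tumour 1 for 5 of 10, Phgdh, Psph, Shmt2, Mthfd2 and Mthfd1l, beside 31.4% of all genes tested. Of these, all but Phgdh had an interval in tumour 1 that overlapped that of the next highest tumour. The median deviation of the 10 genes from their own mean log2 CPM was 0.24, 0.11, -0.31 and -0.07 in tumours 1 to 4. Over all genes tested it was between -0.01 and 0.01. The scaling of the libraries keeps that value small, so it is no test of the 10 genes. Tumour 3 was also the one with the highest pan-leukocyte levels given above. Beside the epithelial and club cell sums given above, tumour 1 had the highest sum of the 10 proliferation markers (924 CPM against 620 to 809 CPM). Of these, 6 were highest there. Tumour 1 also had the lowest sum of the 8 alveolar type 2 markers (32709 CPM against 53044 to 60579 CPM), although Sftpb and Abca3 were lowest in tumour 3. The part of these markers in the orders of the 10 genes was not tested.

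Levels of different genes are compared per length, as CPM per kb of merged annotated exons. Merged exons join all annotated transcripts and can be longer than the transcript present, which lowers the level per kb. For Psph they held 4329 nt, and its longest annotated transcript 2877 nt. Atf4 was highest at 71.9 ± 6.32, followed by Psat1 at 45.2 ± 7.75, Mthfd1 at 35.7 ± 3.22 and Shmt1 at 31.4 ± 5.99 CPM per kb (SD, n = 4). Phgdh at 14.3 ± 10.4, Mthfd2 at 12.0 ± 3.48, Shmt2 at 9.35 ± 2.11 and Mthfd1l at 6.39 ± 1.82 CPM per kb formed a middle group, and Psph at 2.09 ± 0.444 and Aldh1l2 at 1.46 ± 0.537 CPM per kb were lowest. Ordered by mean log2 level, neighbours kept their order in 4 of 4 tumours between Atf4 and Psat1, Shmt1 and Mthfd2, Shmt2 and Mthfd1l, and Mthfd1l and Psph. The remaining neighbours, Psat1 and Mthfd1, Mthfd1 and Shmt1, Mthfd2 and Phgdh, Phgdh and Shmt2, and Psph and Aldh1l2, changed places in at least 1 tumour. With 4 tumours the exact sign-flip permutation test cannot go below p = 0.13 (rounded).

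Paired enzymes of the same step were then compared within each tumour, as differences in log2 CPM per kb. Shmt2 minus its cytosolic counterpart Shmt1 gave -1.64, -1.89, -1.91 and -1.57 in tumours 1 to 4 (mean -1.75 ± 0.17, SD, n = 4). Shmt1 was thus higher in 4 of 4 tumours, 3.37-fold at the mean. Mthfd1l minus the synthetase-bearing Mthfd1 gave -1.91, -2.35, -3.08 and -2.73 (mean -2.52 ± 0.50, SD, n = 4), and Mthfd1 was higher in 4 of 4 tumours. For both steps the cytosolic transcript was the higher one.

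Mthfd2 was above Mthfd2l, the other mitochondrial dehydrogenase of this step, by 2.68, 2.82, 1.99 and 2.32 (mean 2.45 ± 0.37 on the log2 scale, SD, n = 4). The merged exons of Mthfd2l held 6645 nt and its longest transcript 4148 nt, so the size of this difference depends on the length used. Aldh1l2 and its cytosolic counterpart Aldh1l1 had no fixed order, with differences of 0.24, -0.21, 0.76 and 1.26 (mean 0.51 ± 0.64, SD, n = 4) and Aldh1l2 higher in 3 of 4 tumours. Aldh1l1 was itself low, at 3.09 to 7.32 CPM.

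Within the serine branch the middle enzyme was highest. Psat1 was above Psph by 4.16, 4.83, 4.604 and 4.13 on the log2 scale (mean 4.43 ± 0.35, SD, n = 4), 21.6-fold at the mean. Phgdh minus Psat1 gave -0.84, -2.19, -4.22 and -1.06 (mean -2.08 ± 1.55, SD, n = 4), and Phgdh minus Psph 3.32, 2.64, 0.38 and 3.06 (mean 2.35 ± 1.34, SD, n = 4). The order Psat1, Phgdh, Psph held in 4 of 4 tumours, but in tumour 3 Phgdh lay close to Psph. Without tumour 3 the mean of Phgdh minus Psat1 was -1.37 and that of Phgdh minus Psph 3.01. The exact two-sided permutation p was 0.13 for 6 of the 7 pairs and 0.25 for Aldh1l2 with Aldh1l1, or 0.146 and 0.25 after Benjamini-Hochberg adjustment over the 7 pairs, so none could pass 0.05.

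**Figure D3:**
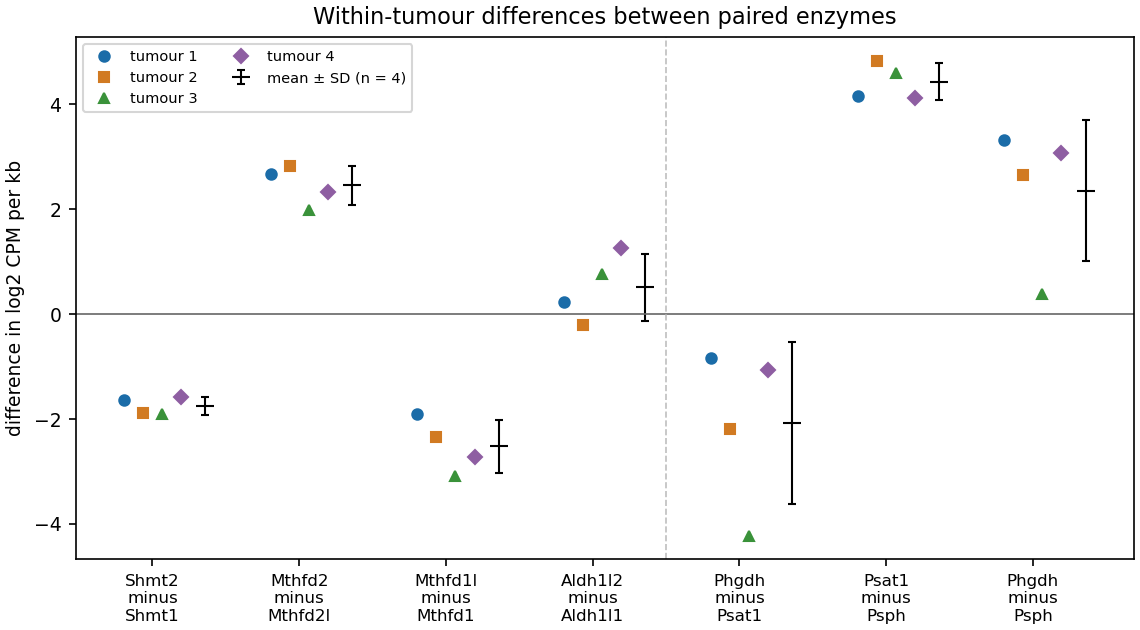
Differences in log2 CPM per kb between paired enzymes, with 1 point for each tumour and the mean ± SD (n = 4) beside them. Psat1 over Psph, Mthfd2 over Mthfd2l and Phgdh over Psph lie above 0 in every tumour, Shmt2 under Shmt1, Mthfd1l under Mthfd1 and Phgdh under Psat1 lie below it, and Aldh1l2 against Aldh1l1 crosses it.

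The level of Phgdh is uncertain because processed pseudogenes, copies of its spliced transcript inserted elsewhere in the genome, resemble it closely. The annotation holds 16 of them at 90% identity or more over at least 500 nt, of which 6 are in the count table and 1 had counts. That copy, listed in the table as Gm7901 and annotated as Gm5847 (ENSMUSG00000082280, chr3:65613589-65615183, 96.2% identity over 1596 nt), held 235, 76, 25 and 101 counts in tumours 1 to 4. It was high and low in the same tumours as Phgdh. In an alternative chosen after the data were seen, its reads were added to Phgdh. They made up 23.0% to 33.3% of the sum, and the fold between highest and lowest tumour was 10.2 in place of 11.1. The mean of Phgdh minus Psat1 in log2 CPM per kb became -1.6 in place of -2.08. Psat1 thus stayed higher at the mean, by a smaller difference. The levels per kb and the order of genes given above are without these reads.

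The 10 genes whose centred log2 CPM over the 4 tumours was most like that of Phgdh were picked from 10260 genes with a mean of at least 10 CPM. They were Scara3, Ddah1, Bhlhb9, Gm15500, Slain1, Amot, the pseudogene Gm7901, Mex3a, Mttp and Slc1a3, with root-mean-square differences from 0.05 for Scara3 to 0.30 for Slc1a3 on the log2 scale. Scara3, a scavenger receptor family member, was at 126, 51.6, 12.1 and 71.5 CPM in tumours 1 to 4. Ddah1, which degrades methylarginines, was at 76.1, 24.0, 5.92 and 35.2 CPM. Slc1a3, a glutamate and aspartate transporter, was at 43.2, 22.2, 5.68 and 44.7 CPM, with tumours 1 and 4 high and tumour 3 low. Of these 10 genes, 4 lie on chromosome 3, the chromosome of Phgdh, beside 5.12% of the candidates, and without Gm7901, a copy of Phgdh whose likeness is not independent of it, 3 of 9 do. Genes chosen for likeness over 4 samples share the libraries, and no test was made of the choice.

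**Figure D4:**
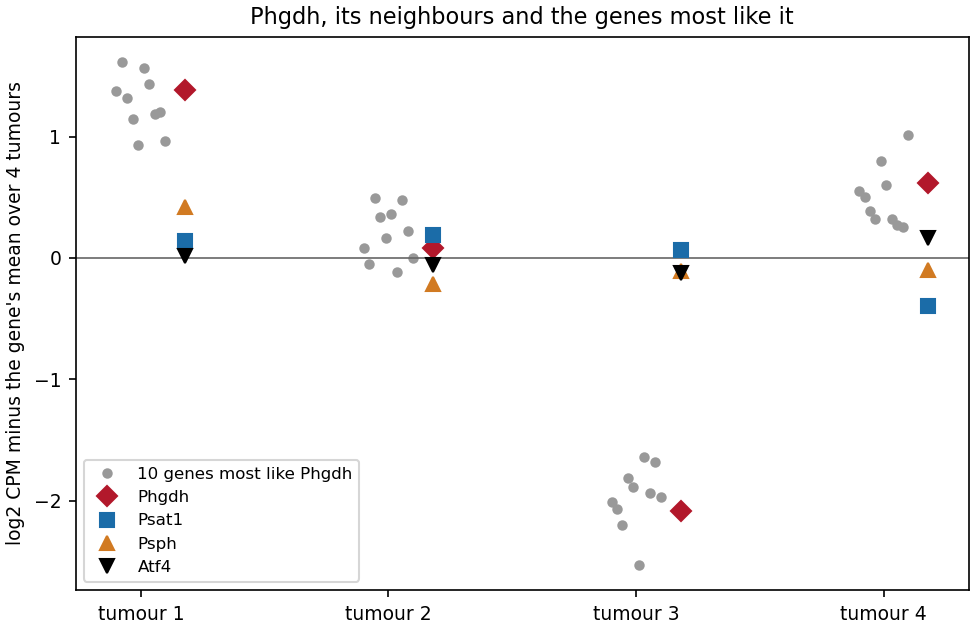
Centred log2 CPM (difference from the gene's own mean) in tumours 1 to 4 for Phgdh (red), the 10 genes most like it (grey points), Psat1, Psph and Atf4. Phgdh and the 10 genes chosen for likeness are lowest in tumour 3, where Psat1, Psph and Atf4 stay near their own means. Atf4 is also lowest there, by a small distance.

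The rest of the pathway was given by 81 genes in 9 lists, of which 76 were tested and 5, Ftcd, Folr2, Bhmt, Sds and Fgf21, were under a mean of 1 CPM. In the chi-square test 66 of 76 varied beyond counting noise (86.8%, beside 76.7% of all genes tested). In the edgeR fit 1 of 76, Ahcy, had an unadjusted p under 0.05 (0.0458, adjusted 0.928), beside 5.27% of all genes tested. The lowest value was in tumour 3 for 30 of 76 genes (39.5%, beside 32.5% of all genes tested) and the highest in tumour 1 for 27 (35.5%, beside 31.4%). Their median SD of log2 CPM was 0.27, beside 0.29 for all genes tested.

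Among other folate interconversion enzymes, 6 of 7 varied beyond counting noise, beside 76.7% of all genes tested. In tumour 3, 4 of 7 were lowest, beside 32.5%. Tyms, thymidylate synthase, was at 41.4, 37.1, 33.6 and 32.5 CPM in tumours 1 to 4. It was highest in tumour 1 and lowest in tumour 4, the order of the summed proliferation markers, which were 924, 809, 802 and 620 CPM. The part of proliferation in these values was not tested.

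Of the folate transport and retention genes, 6 of 7 varied and 4 of 7 were lowest in tumour 3, beside 76.7% and 32.5% of all genes tested. Slc46a1, the proton-coupled folate transporter, was at 16.0, 11.8, 5.92 and 9.63 CPM. Folr1, the folate receptor, was under the detection floor of 3 counts (0.330 to 0.370 CPM over the 4 tumours) in tumour 3, at 0.247 CPM, and at 1.21, 3.95 and 2.85 CPM in tumours 1, 2 and 4. Sfxn1, the mitochondrial serine importer, had little spread, at 149, 130, 146 and 123 CPM. Slc25a32, the mitochondrial folate carrier, was highest in tumour 3, at 14.7, 15.3, 22.7 and 20.1 CPM. In the glycine cleavage list 2 of 4 genes varied, and Gldc, its decarboxylase, was low at 1.51 to 2.75 CPM.

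In the purine synthesis list 6 of 6 genes varied beyond counting noise, beside 76.7% of all genes tested, but over small ranges. The median SD of this list was 0.16 on the log2 scale. Gart and Atic, the enzymes that consume formyl-folate, were at 66.4 to 87.0 and 75.4 to 97.05 CPM. In the methionine cycle and transsulfuration list 9 of 9 varied, with a median SD of 0.51. Ahcy, which hydrolyses S-adenosylhomocysteine, was at 106, 66.3, 39.9 and 44.1 CPM, and its reads can be split with near-identical copies, Gm4737 and Gm9826. Cth, which makes cysteine, was at 4.18, 14.2, 6.91 and 10.9 CPM, with tumour 1 lowest. Among other serine users 5 of 6 varied, and Srr, serine racemase, did not pass the chi-square test (19.5 to 22.0 CPM, adjusted p = 0.634).

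In the list of eIF2 alpha itself, its kinases and phosphatase subunits, 6 of 7 varied, beside 76.7% of all genes tested. Eif2ak4, the kinase that senses uncharged transfer RNA, was at 41.3, 44.3, 60.2 and 53.3 CPM, and tumour 3 was highest. Of the Atf4 partners and stress factors 7 of 9 varied, and 6 of 9 were lowest in tumour 2, beside 19.4% of all genes tested. Trib3, a pseudokinase induced by Atf4, was at 11.3 to 12.3 CPM and Cebpg, a dimer partner of Atf4, at 153 to 166 CPM. Neither passed the chi-square test (adjusted p = 0.929 and 0.1503).

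Atf4 targets outside the pathway numbered 21 tested, of which 19 varied (90.5%, beside 76.7% of all genes tested). In tumour 3, 10 of them were lowest, beside 32.5% of all genes tested, and 6 were highest, beside 30.2%. Asns, asparagine synthetase, was highest in tumour 3, at 72.8, 73.4, 82.8 and 60.1 CPM. Slc7a11, the cystine transporter, was also highest there, at 10.9, 15.4, 31.0 and 11.1 CPM. Slc7a1, a cationic amino acid transporter, and Ddit4, an inhibitor of mTORC1, were lowest in tumour 3, at 62.7, 51.3, 23.2 and 52.1 CPM and at 41.4, 46.9, 17.6 and 30.3 CPM. The list thus held targets highest and targets lowest in tumour 3, the tumour with the lowest Phgdh. A link between these targets and Phgdh was not tested. Mars1 and Sesn2 did not pass the chi-square test (adjusted p = 0.341 and 0.306).

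**Figure D5:**
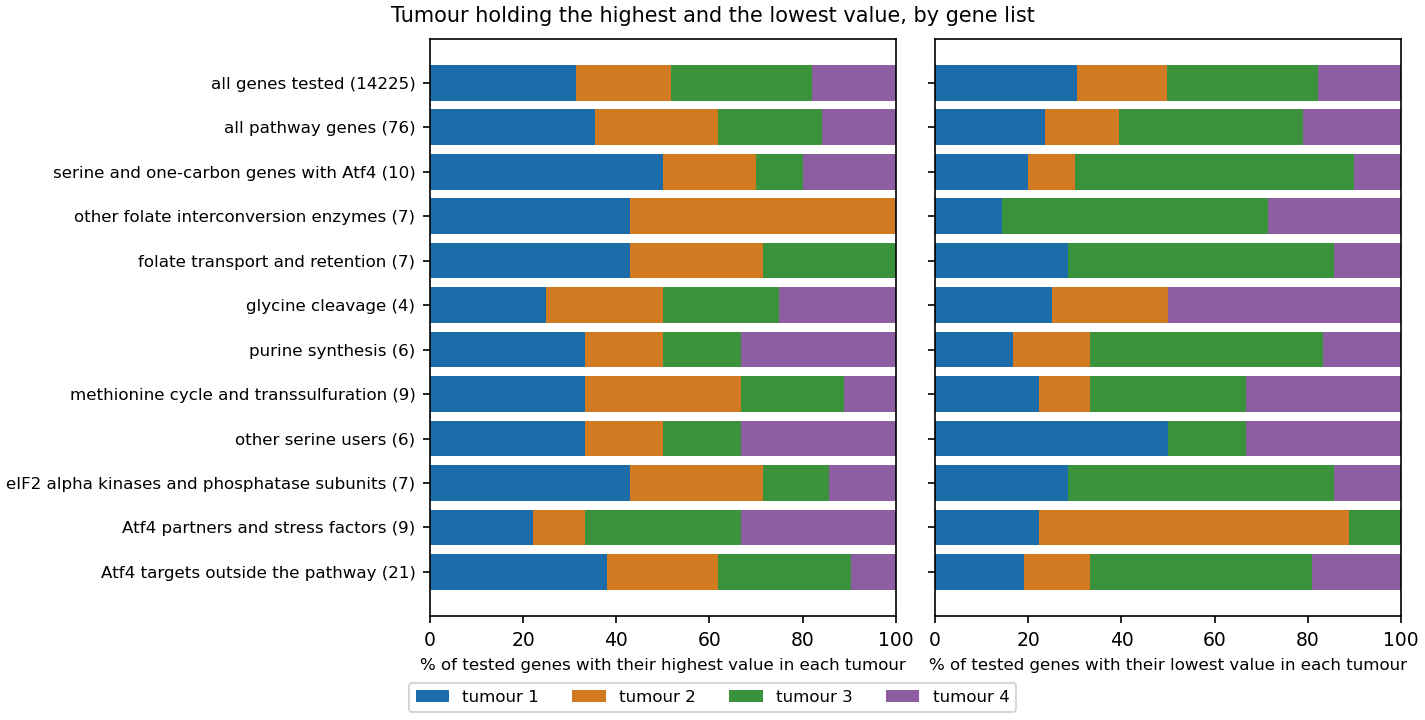
Share of tested genes (%) of each list whose highest value (left) or lowest value (right) lay in tumour 1, 2, 3 or 4, with the number of genes in brackets. Among the 10 serine and one-carbon genes with Atf4, 60% were lowest in tumour 3 and 50% highest in tumour 1, beside 32.5% and 31.4% of all genes tested.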

How the data were processed

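RNA from 4 macrodissected mouse lung tumours of 1 group was sequenced. The authors trimmed reads with Cutadapt, used HISAT2 for alignment to mm10 and counted reads for each Ensembl gene. The submitters' processing notes name featureCounts 1.4.4. The strand setting and annotation release are not given in the sources used here. The deposited counts are raw, and 156068 of 156068 values were equal between the combined and the single tables. The deposited log2 values, described by the authors as TMM followed by voom, served as an alternative.

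CPM used TMM effective library sizes (edgeR 4.0.16, R 4.3.3). The log2 scale used offsets of 0.5 on counts and 1 on effective sizes. The tests covered genes whose mean CPM reached 1, with a threshold of 0.05. Spread was tested by chi-square against Poisson expectations (3 degrees of freedom) and by edgeR quasi-likelihood (biological coefficient of variation 30.8%), both with Benjamini-Hochberg adjustment. Differences between genes within tumours were tested by exact sign-flip permutation, two-sided (smallest p 0.13). Gene positions and exon lengths are from GENCODE M21 on GRCm38, which held 37693 of 39017 gene IDs, and copies were found with BLAST 2.17.0. Total counts of 8151613 to 8799007 set a floor of 3 counts at 0.330 to 0.370 CPM, and intervals cover counting error only. Both spread tests were run on simulated counts, which for the edgeR fit had a lower biological coefficient of variation than these tumours. DESeq2 1.42.0 gave alternative size factors, and alternatives also left out each tumour, changed the filter, the offset, the length and the dispersion. Named genes were the 10 genes, any gene of the 9 pathway lists, and the 10 genes most like the most variable one (mean CPM of at least 10, smallest root-mean-square difference of centred log2 CPM). The genes, lists and tests were chosen with earlier results of these data known. Some genes of the lists are counted but not reported here by name.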

Additional observations from a re-analysis of the deposited data

Results flagged for a closer look

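In 105 sets of 4 values (10 genes, 76 pathway genes, 12 cell type lists and 7 pairs), 6 had 1 tumour whose gap to the nearest other exceeded 0.83 of the range (Dixon's 95% limit for 4 samples), and chance alone passes that limit in about 5% of sets. None of the 10 serine, one-carbon and Atf4 genes and none of the pairs was among them. Srr was high in tumour 4 at 22.0 CPM, against 19.5 to 19.9 CPM. Eif2s1, which encodes eIF2 alpha, was high in tumour 1 at 176 CPM, against 122 to 129 CPM. Atf5, a factor related to Atf4, was low in tumour 3 at 21.7 CPM, against 32.6 to 34.8 CPM. The mean log2 CPM of the alveolar type 2 markers was low in tumour 1, at 10.64 against 11.63 to 11.74. Among them, Sftpb and Abca3 were lowest in tumour 3. The mean log2 CPM of the fibroblast markers was low in tumour 4, at 4.96 against 5.32 to 5.38. Among them, Dcn and Pdgfra were lowest in tumour 1 and Lum in tumour 3. The mean log2 CPM of the 4 tested of 6 T cell markers was high in tumour 3, at 1.88 against 0.02 to 0.31. Cd3g, Cd2 and Trbc2 were highest there, whereas Lck was lowest there, at 2.34 CPM. Counts of Cd3g and Trbc2 were low, at 3 to 27 and 3 to 14. The part of these differences in the values of the report was not tested.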

How the results depend on the processing

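Of 169 alternative values for the counts, orders, Phgdh range and pair differences that answer the comparisons, none reversed and 9 moved by over 1.5 times, a size that was applied to counts, shares and the Phgdh range, whereas pair differences were judged by their sign alone. With library size only, 1 gene in place of 2 was highest in tumour 2, and with a mean CPM of at least 10, where Psph is not tested, 0 in place of 1 was lowest there. Leaving out 1 tumour at a time, the number of genes highest in tumour 2 was between 3 and 5 and lowest there between 1 and 3, highest in tumour 4 between 2 and 4 and lowest there between 1 and 5, as follows when the tumour that held the extreme is absent. The Phgdh range was between 2.47-fold (without tumour 3) and 11.1-fold when a tumour was left out, and between 10.2-fold and 11.5-fold under the other alternatives. The share of all genes past the chi-square test was between 53.5% (no filter) and 85.3% (mean CPM of at least 10). Among 761 values of single genes, 45 lost and 2 gained their call, 42 of the losses on leaving out a tumour. No paired analysis was possible because the design has 1 group. Psph and Aldh1l2 had low counts (66 to 108 and 71 to 141), and 4 tumours cannot bring the pair test below 0.13 (rounded).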
